A study of Saccharomyces cerevisiae with 6 samples.

Results

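The 10 genes described here encode the enzymes that carry the citric acid cycle from 2-oxoglutarate to malate in budding yeast, Saccharomyces cerevisiae. They are KGD1, KGD2 and LPD1 of 2-oxoglutarate dehydrogenase, LSC1 and LSC2 of succinyl-CoA ligase, SDH1, SDH2, SDH3 and SDH4 of succinate dehydrogenase, and FUM1, which encodes fumarase. The members were taken by gene name, whatever their values, and make up 10 of the 5449 yeast genes read on the arrays. Each was read by 1 probe set, and none of these sets is marked as able to cross-hybridize. All cultures were of strain VTT C-10883, kept in continuous culture without oxygen. Total RNA came from 3 biological replicates with treatment given as none and from 3 replicates treated with hydroxymethylfurfural (HMF) and furfural, which are aldehydes that form when plant biomass is broken down and that hinder fermentation. The protocol describes a step change of the feed to medium holding both aldehydes. The labels give neither dose nor time, and the 2 aldehydes were added together, so their effects cannot be told apart.

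In this stretch of the cycle, 2-oxoglutarate dehydrogenase makes succinyl-CoA and NADH, succinyl-CoA ligase turns succinyl-CoA into succinate while making ATP, succinate dehydrogenase oxidizes succinate to fumarate, and fumarase adds water to give malate. Succinate dehydrogenase is also a complex of the respiratory chain, because it hands its electrons to ubiquinone in the inner mitochondrial membrane. Without oxygen, yeast does not respire, its cycle is thought to run as separate branches that feed biosynthesis, and soluble fumarate reductases can form succinate from fumarate.

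With HMF and furfural, 5 of the 10 genes fell and 0 rose, beside 22.3% called lower and 19.9% called higher over all genes. The falls were those of SDH1, SDH2, LSC2, KGD2 and FUM1, and they ran from 1.14-fold for FUM1 to 1.54-fold for SDH1. The other 5 members, KGD1, LPD1, LSC1, SDH3 and SDH4, were not called. The 3 largest falls each exceeded 0.5 on the log2 scale, while LPD1, LSC1 and SDH4 had values between -0.08 and -0.02. Subunits of one enzyme therefore had unlike values, and the catalytic subunit genes SDH1 and SDH2 lay far from the membrane anchor genes SDH3 and SDH4.

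These calls come from limma's moderated test across all 5449 genes, two-sided, at a Benjamini-Hochberg adjusted p under 0.05. Across all genes, 22.3% were called lower, 19.9% higher and 42.2% in either direction, so a call by itself does not set a gene apart in this experiment. All 10 members had values below 0, as did 2917 of the 5449 genes. The median log2 fold change was -0.18 over the members and -0.01 over all genes. In 8 of the 10 members every array with inhibitors lay below every array without, an arrangement found for 29.3% of all genes. At an adjusted p under 0.01, 4 of the 5 falls were still called. Without inhibitor replicate 1, 7 members were called lower, with SDH3 and LPD1 added (adjusted p = 0.0174 and 0.0204). RNA was taken from whole cultures, so a lower level in every cell and a loss of transcript from a share of the cells cannot be told apart.

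**Figure D1:**
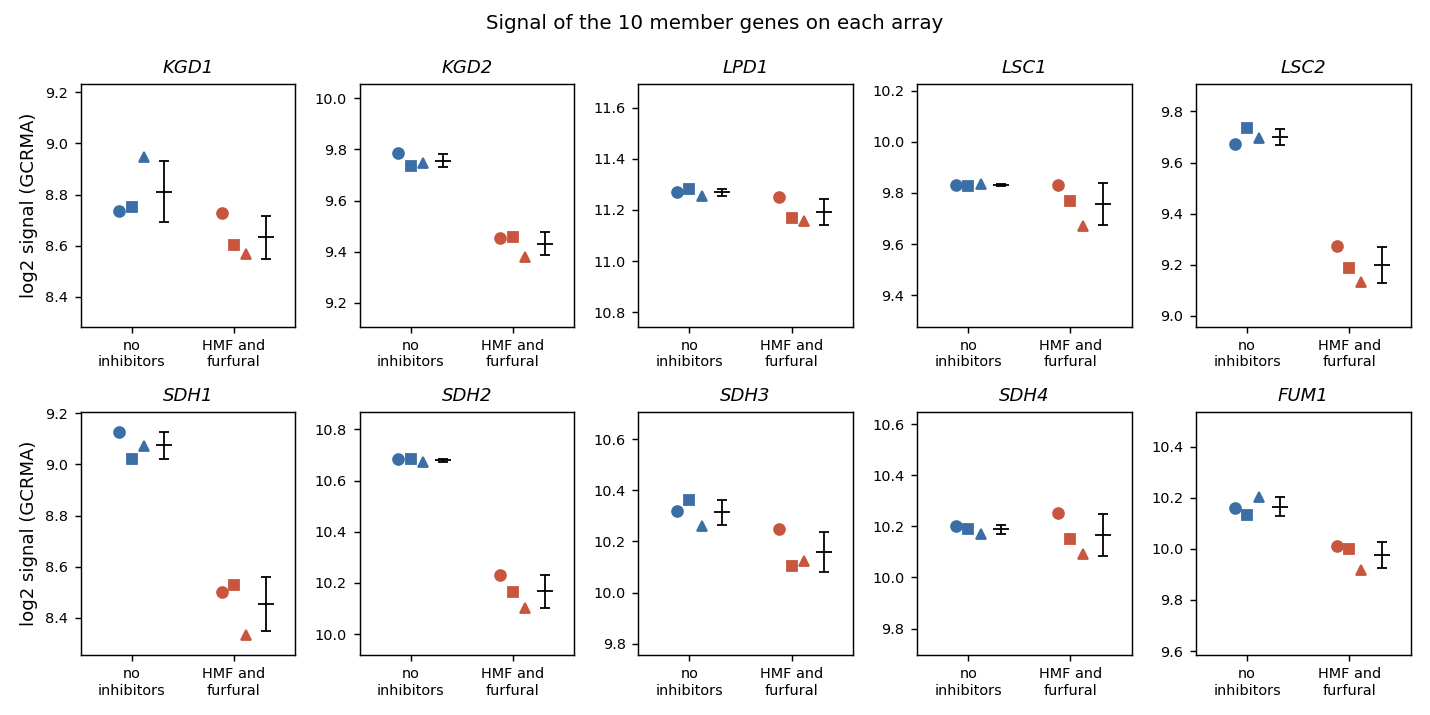
Log2 signal of each of the 10 genes (y axis, GCRMA units) on the 3 arrays without inhibitors (blue) and the 3 with HMF and furfural (red). Circles, squares and triangles are replicates 1, 2 and 3, the black bars are mean ± SD, and every panel spans the same log2 range around its own centre. The groups lie far apart for SDH1, SDH2, LSC2 and KGD2, and overlap for LSC1 and SDH4.

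2-Oxoglutarate dehydrogenase is built from E1, E2 and E3 proteins, and the gene of its E2 core fell. KGD2 (YDR148C) encodes that core, the dihydrolipoyl transsuccinylase. Its log2 signal was 9.79, 9.74 and 9.75 in no-inhibitor replicates 1 to 3, and 9.45, 9.46 and 9.38 in the inhibitor replicates. The groups were separated by 0.28, several times the spread within either group. On the log2 scale KGD2 fell by 0.33 (SE 0.03, adjusted p = 0.00143), which is 1.25-fold.

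KGD1 (YIL125W), the gene of the E1 2-oxoglutarate decarboxylase, had signals of 8.73, 8.75 and 8.95 without inhibitors and 8.73, 8.60 and 8.57 with them. The groups came within 0.0065 of each other, and no-inhibitor replicate 3 stood above the rest. The log2 fold change of KGD1 was -0.18 (SE 0.07, 95% interval -0.36 to 0.01, adjusted p = 0.108), and it was -0.11 without no-inhibitor replicate 3. LPD1 (YFL018C) encodes the E3 dihydrolipoamide dehydrogenase, which also serves pyruvate dehydrogenase and the glycine cleavage system. It gave 11.27, 11.28 and 11.25 without inhibitors and 11.25, 11.17 and 11.16 with them. Its log2 fold change was -0.08 (95% interval -0.15 to 0.002, adjusted p = 0.104), so a fall of the size seen for KGD2 lay outside its interval.

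Set against LPD1 on the same array, KGD2 had a log2 ratio of -1.51 ± 0.03 (SD, n = 3) without inhibitors and -1.76 ± 0.05 with them, a shift of -0.25 in which the groups did not overlap. The size of such a ratio depends on how bright each probe set is, so only its shift between groups is read. KGD1 against KGD2 shifted by 0.15 and KGD1 against LPD1 by -0.10, and in both the groups overlapped (exact permutation p = 0.3 for each, two-sided). Leaving out no-inhibitor replicate 3 took the first of these to 0.22 and the second to -0.03.

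Succinyl-CoA ligase has an alpha and a beta subunit, and their genes had unlike values. LSC2 (YGR244C), the beta subunit gene, had signals of 9.67, 9.73 and 9.70 without inhibitors and 9.27, 9.19 and 9.13 with them. Its log2 signal fell by 0.50 (SE 0.04, adjusted p = 0.00101), or 1.42-fold, and 0.40 separated the groups. LSC1 (YOR142W), the alpha subunit gene, gave 9.83, 9.83 and 9.83 without inhibitors and 9.83, 9.77 and 9.67 with them.

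The LSC1 groups overlapped, since inhibitor replicate 1 matched the arrays without inhibitors. Its log2 fold change was -0.07 (SE 0.04, 95% interval -0.18 to 0.04, adjusted p = 0.227). The LSC1 to LSC2 log2 ratio went from 0.13 ± 0.03 without inhibitors to 0.56 ± 0.02 with them (SD, n = 3 each). That shift of 0.43, a 1.35-fold change in the ratio, stayed between 0.41 and 0.44 when any 1 array was left out.

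Succinate dehydrogenase has 4 subunits, and the genes called lower were those of its catalytic pair. SDH1 (YKL148C) encodes the flavoprotein that oxidizes succinate, and it showed the largest fall of the 10 genes. Its signals were 9.13, 9.02 and 9.07 without inhibitors and 8.50, 8.53 and 8.33 with them. The 2 groups were 0.50 apart at their nearest arrays. The log2 signal of SDH1 fell by 0.62 (SE 0.06, adjusted p = 0.00163), to 0.651 of its level without inhibitors, and 2.42% of all genes had a lower value.

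SDH2 (YLL041C), the gene of the iron-sulfur subunit that passes electrons on from the flavoprotein, gave 10.68, 10.68 and 10.67 without inhibitors and 10.23, 10.17 and 10.10 with them. The arrays without inhibitors lay within about 0.01 of each other, and those with inhibitors were more spread out. SDH2 fell by 0.51 (SE 0.04, adjusted p = 0.000705), or 1.43-fold. SDH1 against SDH2 shifted by -0.11, with overlapping groups (exact permutation p = 0.2, two-sided).

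SDH3 (YKL141W) and SDH4 (YDR178W) encode the membrane anchor that holds the complex in the inner membrane. SDH3 had signals of 10.32, 10.36 and 10.26 without inhibitors and 10.25, 10.10 and 10.13 with them. The groups lay only 0.01 apart, with inhibitor replicate 1 just below the lowest array without inhibitors. Its log2 fold change was -0.16 (SE 0.05, 95% interval -0.28 to -0.03), and its adjusted p of 0.0515 fell just short of the threshold. That p ranged from 0.0174 to 0.139 over 14 alternative settings, 6 of which called it lower.

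SDH4 gave 10.20, 10.19 and 10.17 without inhibitors and 10.25, 10.15 and 10.09 with them. The SDH4 arrays with inhibitors lay on both sides of those without. Its log2 fold change was -0.02 (95% interval -0.13 to 0.09, adjusted p = 0.721), and it was 0.01 without inhibitor replicate 3.

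Taking the ratio of 2 of these genes on the same array removes what the genes of an array share. SDH2 against SDH4 went from 0.49 ± 0.01 on the log2 scale without inhibitors to 0.0016 ± 0.02 with them (SD, n = 3 each), a shift of -0.49. SDH1 against SDH4 shifted by -0.60, SDH1 against SDH3 by -0.46 and SDH2 against SDH3 by -0.36. SDH3 against SDH4 shifted by -0.13, again with no overlap. On each array with inhibitors, the ratio of a catalytic to an anchor subunit gene lay below all 3 arrays without.

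Of 12 pairs compared, within an enzyme or between a member and its paralog, 8 had groups that did not overlap. Of all genes taken singly, 55.4% had such groups, and no share was computed for other gene pairs. Each of the 8 had an exact two-sided permutation p of 0.1, the smallest that 3 arrays against 3 allow, and 0.15 after Benjamini-Hochberg adjustment over the 12 pairs. None could therefore pass 0.05, and the sizes with their SDs are the evidence given.

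**Figure D2:**
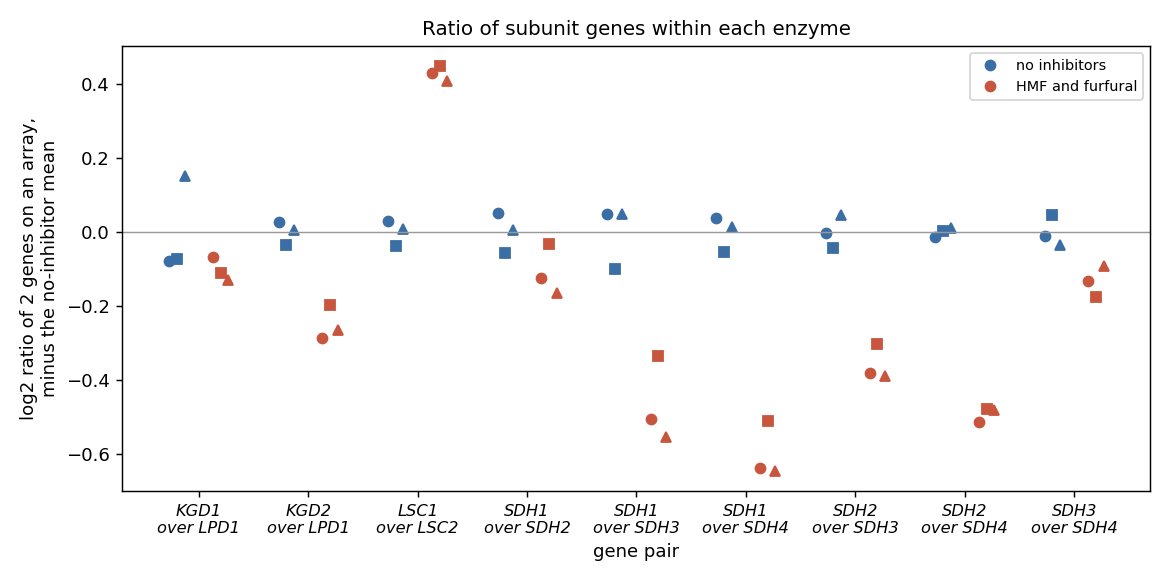
Log2 ratio of 2 subunit genes on the same array (y axis), shown as the deviation from the mean ratio without inhibitors, for 9 pairs within an enzyme (x axis). Blue symbols are arrays without inhibitors, red symbols arrays with HMF and furfural, and circles, squares and triangles are replicates 1, 2 and 3. The ratio of LSC1 to LSC2 was higher on all 3 arrays with inhibitors, and the ratios of SDH1 or SDH2 to an anchor gene were lower on all 3.

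Fumarase is made from the single gene FUM1 (YPL262W) and works both in mitochondria and in the cytosol. FUM1 had signals of 10.16, 10.13 and 10.20 without inhibitors and 10.01, 9.998 and 9.92 with them. The groups were 0.12 apart. FUM1 fell by 0.19 (SE 0.04, adjusted p = 0.011), or 1.14-fold, the smallest of the 5 falls.

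**Figure D3:**
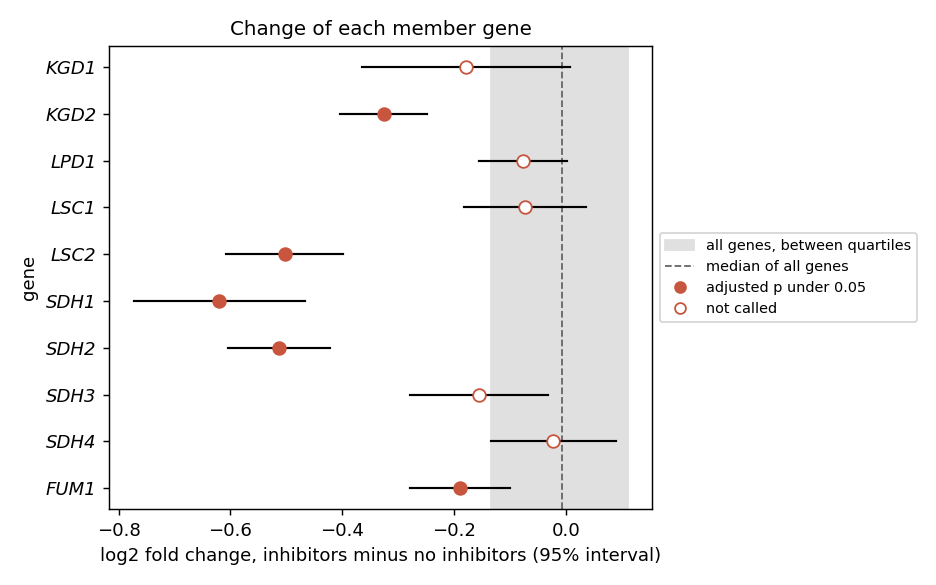
Log2 fold change of each of the 10 genes, inhibitors minus no inhibitors (x axis), with its 95% interval as a line. Filled points passed an adjusted p of 0.05, open points did not, and the grey band and dashed line give the quartile range and the median of all 5449 genes. SDH1, SDH2, LSC2 and KGD2 lie below the band with their whole intervals, and SDH4 lies near 0.

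The arrays with inhibitors were not alike in these genes. Inhibitor replicate 1 was the highest of its group in 8 of the 10 members, and inhibitor replicate 3 was the lowest in 9. The mean over the members was 9.78, 9.71 and 9.65 in inhibitor replicates 1 to 3, against 9.97 to 9.99 in the arrays without inhibitors. The median signal of all genes lay between 7.46 and 7.48 on the 6 arrays, values that GCRMA brings close together by design. The part of other array-wide differences in this spread was not tested. Members SDH1, SDH2, LSC2, KGD2 and FUM1 were called with any 1 array left out, at adjusted p values up to 0.0369.

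Lists of genes around these enzymes were drawn up with earlier results of these data known, and they are described by their counts. Each count is to be read beside the 22.3% of all genes called lower and the 19.9% called higher. In the rest of the cycle 3 of 6 measured genes fell and 0 rose, with a median of -0.17. MDH1, which encodes the mitochondrial malate dehydrogenase of the step after fumarase, fell by 0.24 (SE 0.05, adjusted p = 0.0112), and the aconitase gene ACO1 fell by 0.20 (adjusted p = 0.0124). The citrate synthase gene CIT1 fell by 0.18 (adjusted p = 0.036), a call that failed when any no-inhibitor replicate, or inhibitor replicate 2 or 3, was dropped (adjusted p = 0.0654 to 0.103). IDH1 and IDH2, the genes of the isocitrate dehydrogenase that makes 2-oxoglutarate, had log2 fold changes of -0.04 and 0.0022 (adjusted p = 0.511 and 0.991). CIT3 was not called either.

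Proteins that build succinate dehydrogenase had genes with small falls. Of 6 measured assembly genes 4 fell and 0 rose, with a range from -0.24 to -0.13. SDH6, which helps to mature the iron-sulfur subunit, fell by 0.24 (SE 0.03, adjusted p = 0.00434), and SDH7, which acts with it, fell by 0.17 (adjusted p = 0.0143). SDH5, which is needed to attach the flavin to Sdh1, fell by 0.18 (adjusted p = 0.0157), a call which did not hold when no-inhibitor replicate 2 or 3 was dropped (adjusted p = 0.0517 and 0.0522). FLX1, the gene of a mitochondrial flavin carrier, fell by 0.24 (adjusted p = 0.0308). It was no longer called after dropping replicate 1 of either group, no-inhibitor replicate 3 or inhibitor replicate 2 (adjusted p = 0.0687 to 0.0921). SDH8 and TCM62 had log2 fold changes of -0.13 and -0.16 and were not called (adjusted p = 0.114 and 0.0613). TCM62 was called lower under median centring, the background filter, the alternative moderation, and without no-inhibitor replicate 2 (adjusted p = 0.0401 to 0.0489). SDH8 was called lower with array weights (adjusted p = 0.047).

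Paralogs and added subunits moved in both directions. KGD4, which recruits the E3 protein to 2-oxoglutarate dehydrogenase, went from 10.24 to 10.09, a fall of 0.15 (adjusted p = 0.034), which no longer passed after dropping replicate 2 of either group, no-inhibitor replicate 1 or inhibitor replicate 3 (adjusted p = 0.0961 to 0.0977). SHH3, a paralog of SDH3, was dim, with signals of 4.40, 4.68 and 5.12 without inhibitors and 4.16, 3.57 and 3.46 with them. It fell by 1.00 (SE 0.26, adjusted p = 0.0286), a call that did not hold after dropping replicate 2 or 3 of either group (adjusted p = 0.0696 to 0.0857). SDH3 against SHH3 shifted by 0.85, with 0.63 to 1.02 when 1 array was left out.

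SHH4, a paralog of SDH4, was not called, at -0.17 on the log2 scale (adjusted p = 0.159). TIM18, another relative of SDH4 whose protein joins Sdh3 in the TIM22 translocase, rose by 0.16 (adjusted p = 0.0389). The TIM18 call was lost without any 1 of the no-inhibitor replicates or inhibitor replicate 2 (adjusted p = 0.063 to 0.111). SDH9, a paralog of SDH1, was not analysed here.

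LPD1 has partners outside the cycle, and several of their genes rose. Of 10 genes for lipoate attachment, pyruvate dehydrogenase and the glycine cleavage system, 4 rose, 2 fell and 4 were not called. Over all genes, 19.9% were called higher and 22.3% lower. GCV1, the aminomethyltransferase gene of glycine cleavage, rose from 10.42 to 10.76, by 0.34 (SE 0.03, adjusted p = 0.00107). GCV3, which encodes the lipoate-bearing H protein, rose by 0.21 (adjusted p = 0.00286) and LAT1, the E2 gene of pyruvate dehydrogenase, by 0.19 (adjusted p = 0.011). GCV2, the glycine decarboxylase gene, rose by 0.17 (adjusted p = 0.0235), a call that needed no-inhibitor replicate 1 and each inhibitor replicate (dropping 1 gave adjusted p = 0.0533 to 0.0739).

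The E1 alpha gene PDA1 and the lipoyl transferase gene LIP2 were the falls of that list. PDA1 fell by 0.12 (adjusted p = 0.0231) and LIP2 by 0.17 (adjusted p = 0.0248). PDA1 was not called without any 1 of the no-inhibitor replicates or inhibitor replicate 2 or 3 (adjusted p = 0.0507 to 0.0722), nor LIP2 without replicate 1 or 3 of either group (adjusted p = 0.0669 to 0.0784). The E2 genes KGD2 and LAT1, whose proteins both carry lipoate, were thus called in opposite directions.

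**Figure D4:**
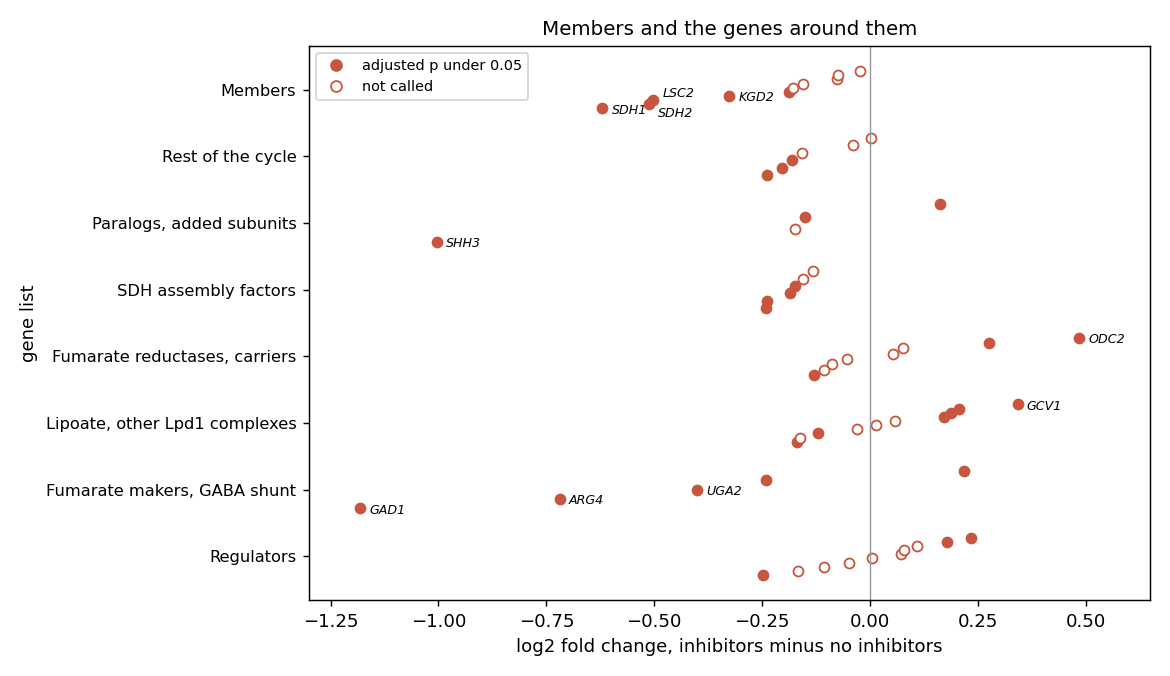
Log2 fold change, inhibitors minus no inhibitors (x axis), of every measured gene in the 10-member group and in 7 lists around it (y axis), with filled points for an adjusted p under 0.05 and open points for genes not called. Names are given for genes with a value beyond 0.3 in either direction. Of the 10 members 5 fell, and of the 6 assembly factors 4 fell, with 0 rises in either. The Lpd1 and lipoate list holds 4 rises and 2 falls. The list of fumarate makers and the GABA shunt holds 4 falls and 1 rise. Over all genes, 22.3% were called lower and 19.9% higher.

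Of 5 genes on other routes to succinate and fumarate 4 fell and 1 rose, beside 22.3% lower and 19.9% higher over all genes. The GABA shunt turns glutamate into succinate and so bypasses 2-oxoglutarate dehydrogenase and succinyl-CoA ligase, and its 3 genes all fell. GAD1, for glutamate decarboxylase, had signals of 6.34, 6.45 and 6.70 without inhibitors and 5.36, 5.53 and 5.05 with them. It fell by 1.18 (SE 0.15, adjusted p = 0.0035), or 2.27-fold. UGA2, for succinate semialdehyde dehydrogenase, fell by 0.40 (SE 0.03, adjusted p = 0.000902), and UGA1, for GABA transaminase, by 0.24 (adjusted p = 0.00255).

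Fumarate is also released in the cytosol by lyases of arginine and purine synthesis. ARG4, for argininosuccinate lyase, fell by 0.72 (SE 0.03, adjusted p = 0.000329), while ADE13, for adenylosuccinate lyase, rose by 0.22 (SE 0.02, adjusted p = 0.00212). No array of one group reached into the range of the other for these 5 genes, as for 55.4% of all genes.

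Fumarate reductases and the carriers of cycle acids gave 2 rises and 1 fall among 8, beside 19.9% higher and 22.3% lower over all genes. ODC2, a mitochondrial carrier that exports 2-oxoglutarate and 2-oxoadipate, rose from 10.17 to 10.66, by 0.48 (SE 0.07, adjusted p = 0.00412). ODC1, a paralog of ODC2, was not called, at -0.09 (adjusted p = 0.347). Without no-inhibitor replicate 3, ODC1 was called lower, at -0.16 (adjusted p = 0.0394). CTP1, the citrate carrier gene, rose by 0.28 (SE 0.03, adjusted p = 0.00285). OSM1, a fumarate reductase gene, fell by 0.13 (adjusted p = 0.021), and was not called after dropping no-inhibitor replicate 1 or 3, or replicate 2 of the inhibitor group (adjusted p = 0.0589 to 0.0643). The cytosolic enzyme's gene, FRD1, had a log2 fold change of -0.05 (95% interval -0.14 to 0.04, adjusted p = 0.276).

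Among 10 regulators of cycle genes 1 fell, 2 rose and 7 were not called, beside 22.3% lower and 19.9% higher over all genes. HAP4 encodes the activating subunit of the Hap complex, which drives many respiratory genes, the KGD and SDH genes among them. Its signals were 8.78, 8.78 and 8.80 without inhibitors and 8.54, 8.58 and 8.50 with them, and it fell by 0.25 (SE 0.03, adjusted p = 0.00221). HAP3, for a DNA-binding subunit, rose by 0.18 (adjusted p = 0.0414), and was not called after dropping no-inhibitor replicate 1 or 3, or any inhibitor replicate (adjusted p = 0.0614 to 0.111). RTG2, a sensor of the retrograde pathway that links mitochondrial state to cycle genes, rose by 0.23 (SE 0.05, adjusted p = 0.0126). Whether these regulators had a part in the members' falls was not tested.

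Markers of growth without oxygen had signals from 6.82 to 12.9 and were above background on all 6 arrays. So were 5346 of the 5449 genes. Of the 7 markers 4 rose and 1 fell, beside 19.9% higher and 22.3% lower over all genes. ANB1, AAC3, DAN1 and TIR3 rose. COX5B, for the hypoxic form of a cytochrome oxidase subunit, fell by 0.22 (adjusted p = 0.00828). TIR1 and HEM13, whose groups overlapped, were not called. ANB1, an anaerobic translation factor gene, rose by 0.67 (SE 0.09, adjusted p = 0.00345), and AAC3, an anaerobic ADP/ATP carrier gene, by 0.64 (adjusted p = 0.00581). The wall protein genes DAN1 and TIR3 rose by 0.34 and 0.22 (adjusted p = 0.00753 and 0.00914). The mean log2 signal over the 7 markers was 10.54 to 10.65 without inhibitors and 10.78 to 10.89 with them. Their part in the falls of the cycle genes was not tested.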

How the data were processed

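Affymetrix arrays read biotin-labelled RNA from 6 samples, 3 per group, grouped by their labels. The deposited values are log2 signals, made with GCRMA and limma per the submitters' processing notes. No version or genome build is named there. GCRMA estimates background from each probe's sequence and scales arrays to each other, so dim genes gather at a floor (lowest value 2.21), which makes their changes hard to size. All 10 members lay above background, the 95th percentile of the 1746 fission yeast probe sets on each array, a level close to that floor. So did 5346 of the 5449 genes on all 6 arrays. The number of arrays limits precision. The median SD within groups was 0.06, and arrays correlated at r of at least 0.998 within groups. What separated the biological replicates is not stated, so p-values measure the spread between these samples. Whether samples with and without inhibitors shared a culture is not stated either.

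Probe sets were named by the platform annotation, and 12 symbols were updated through RefSeq R64. The set with the highest mean was used for each of 5449 genes. Groups were compared in limma 3.58.1 (R 4.3.3) with group as the only factor, two-sided, with Benjamini-Hochberg adjustment over all genes. The procedure was tested on simulated data. Pairs of subunits were compared by exact permutation over arrays. Members, lists, alternatives and the naming rule (all members, markers and list genes called, up to 4 others by size) were chosen with earlier results of these data known. Promoter motifs and sequences were not analysed here. Figures used matplotlib 3.10.9.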

Additional observations from a re-analysis of the deposited data

How the results depend on the processing

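The 5 falls kept their direction and their call under the 14 alternative fits (normalization, filter, moderation, array weights, replicate block, probe-set choice, cross-hybridization, and each array left out), except that FUM1 was not called with the replicate block (adjusted p = 0.0569). The labels do not state whether same-numbered samples were paired. Deviations of same-numbered arrays correlated at r = -0.25 to -0.20, and none correlated best with its own number. These deviations sum to 0 within each group of 3 arrays, so the correlations cannot exclude a shared run. With the block 774 genes were called higher and 810 lower, and 4 members lower. Over the 140 fits of members, 130 kept both the direction and the call of the main analysis, 8 called LPD1 or SDH3 anew, 1 lost FUM1, and 1 turned the sign of SDH4, which was called in neither fit, to 0.0147 (range -0.0658 to 0.0147 with 1 array left out). All 96 refits of the pair ratios kept their direction. Counts for small lists moved more. With the block, the rest of the cycle gave 1 fall, since MDH1 and ACO1 were not called (adjusted p = 0.0569 and 0.0634), nor was COX5B (adjusted p = 0.0506). The paralogs gave 0 falls and 0 rises, the carriers and reductases 0 falls, the Lpd1 and lipoate list 0 falls, and the regulators 1 rise. Quantile normalization left 1 fall in the Lpd1 and lipoate list, and array weights gave 3 falls among regulators. Assembly factors gave 5 falls under median centring, the background filter, the alternative moderation and array weights. With 1 array left out, the paralogs gave 0 to 2 falls and 0 to 1 rises, assembly factors 2 to 4 falls, carriers and reductases 0 to 1 falls, the Lpd1 and lipoate list 0 to 1 falls, and the regulators 1 to 2 rises and 1 to 2 falls. At an adjusted p under 0.01, 608 genes were higher and 582 lower, as a stricter threshold must give. At that level the rest of the cycle gave 0 falls, the paralogs 0 falls and 0 rises, assembly factors 1 fall, carriers and reductases 0 falls, the Lpd1 and lipoate list 2 rises and 0 falls, and regulators 0 rises. What else moved these counts was not tested. Genes not called in the main fit lay on both sides of 0: IDH2 at -0.0032 and ROX1 at -0.0001 under median centring, CIT3 at 0.0172 and RTG1 at 0.0356 under quantile normalization, PDB1 at -0.0004 and ROX1 at -0.015 with array weights. With 1 array left out, IDH2 ranged from -0.0307 to 0.0539, RTG1 from -0.1298 to 0.0046, HEM13 from -0.0359 to 0.0087, PDB1 from -0.0093 to 0.0351 and ROX1 from -0.0191 to 0.0268. RTG1 was called lower without no-inhibitor replicate 3 (adjusted p = 0.0294). CIT3 was called lower, at -0.3538, without inhibitor replicate 1 (adjusted p = 0.0297). Dim genes such as SHH3 and CIT3 rest on signals near the array's floor.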

Other observations

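The 5 genes outside the lists whose signal followed the mean of the 10 members most closely over the 6 arrays were THI13, BNA3, ISC1, YRO2 and ATP2, at Pearson r of 0.998 to 0.999. ATP2, which encodes the beta subunit of the mitochondrial ATP synthase, fell by 0.34 in log2 signal (SE 0.05, adjusted p = 0.00511). BNA3, of the kynurenine pathway, fell by 0.12 (adjusted p = 0.00907), and ISC1, which encodes a sphingolipid phospholipase, by 0.23 (adjusted p = 0.00522). YRO2, a membrane protein gene related to HSP30, fell by 0.78 (adjusted p = 0.00187). THI13 belongs to a family of near-identical thiamine synthesis genes, so its fall of 0.35 (adjusted p = 0.00311) may be read from any of them. The points share the split between groups, and 845 of 5317 genes correlated above 0.9, so this likeness is a description with no test.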
